A study of Homo sapiens with 8 samples.

Results

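The genes examined here were the 4 class I histone deacetylases (HDAC1, HDAC2, HDAC3 and HDAC8) and 6 partners of HDAC1 and HDAC2 in the nucleosome remodelling and deacetylase (NuRD) complex (MTA1, MTA2, MTA3, CHD3, CHD4 and MBD3), which makes 10 of the 35238 gene symbols in the count table. They were listed by name as the enzymes that romidepsin inhibits and subunits of a complex built on them. No cutoff on their measured values was used, but earlier results of these data were known when they were chosen. All 10 passed the filter on low counts, with 202 to 9075 counts in any library. RNA was sequenced from MP38, an established BAP1-mutant uveal melanoma (UM) cell line, in 8 libraries that fell into 4 groups of 2: control cells in 0.1% DMSO, and cells given 40 nM romidepsin, 40 nM quisinostat or 1200 nM mivebresib, each for 24 h. Every group was thus in 0.1% DMSO, and each library came from a separate well of the same line, so that p-values measure only the spread between wells.

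Class I HDACs remove acetyl groups from the lysines of histone tails and are mostly nuclear, zinc-dependent enzymes. HDAC1 and HDAC2 are closely related and work inside large complexes. NuRD joins them to a CHD helicase that slides nucleosomes, an MTA scaffold that docks the deacetylase, and an MBD protein; HDAC3 instead works with a corepressor complex of its own, and HDAC8 acts outside these complexes. Romidepsin is a cyclic peptide inhibitor of class I HDACs, quisinostat is a hydroxamate inhibitor of HDACs more broadly, and mivebresib keeps BET bromodomain proteins, which read acetylated histones, off chromatin. The comparisons ask whether cells given these drugs changed the transcripts of the class I HDACs and of the complex around them. These enzymes are targets of romidepsin and quisinostat but not of mivebresib. A bulk library cannot tell fewer cells from less RNA per cell.

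HDAC1 and HDAC2 transcripts passed no test against the control with any drug, whereas CHD3 and MTA2 fell with all 3 drugs. MBD3 fell with both HDAC inhibitors, to 0.57-fold of the control with romidepsin and 0.47-fold with quisinostat, and was 0.95-fold with mivebresib, which did not pass the test. HDAC3 rose 1.76-fold with mivebresib, while HDAC8 rose 1.39-fold with quisinostat and fell to 0.58-fold with mivebresib. MTA3 fell with mivebresib to 0.47-fold.

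Promoters of the 6 genes that passed the F test over the 4 groups are shown from RefSeq on GRCh38.p14, so that the letters can be set beside the values. Each window runs from 250 bases before to 50 bases after the annotated start, 5′ to 3′. Capitals mark the GC box (GGGCGG), the CCAAT box (CCAAT) or the ETS core (CCGGAAG) on either strand. CHD3 lies at chr17:7888539-7888838 (plus strand), MTA2 (the first of 2 starts) at chr11:62601816-62602115 (minus strand), MTA3 (also the first of 2) at chr2:42493860-42494159 (plus strand), MBD3 at chr19:1592816-1593115 (minus strand), HDAC3 at chr5:141636800-141637099 (minus strand) and HDAC8 at chrX:72572794-72573093 (minus strand).
CHD3: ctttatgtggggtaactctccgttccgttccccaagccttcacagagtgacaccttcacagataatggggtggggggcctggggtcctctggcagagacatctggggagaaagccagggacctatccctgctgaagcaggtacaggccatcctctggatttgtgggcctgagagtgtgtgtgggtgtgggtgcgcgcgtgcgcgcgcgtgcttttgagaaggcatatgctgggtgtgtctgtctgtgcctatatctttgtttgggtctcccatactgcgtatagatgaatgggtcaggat
MTA2: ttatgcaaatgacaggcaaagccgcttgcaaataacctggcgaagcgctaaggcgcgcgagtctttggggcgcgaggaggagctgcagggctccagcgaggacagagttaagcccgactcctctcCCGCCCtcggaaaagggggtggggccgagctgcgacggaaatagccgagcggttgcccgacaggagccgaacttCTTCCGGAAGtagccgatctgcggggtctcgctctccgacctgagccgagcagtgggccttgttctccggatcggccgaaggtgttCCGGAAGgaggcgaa
MTA3: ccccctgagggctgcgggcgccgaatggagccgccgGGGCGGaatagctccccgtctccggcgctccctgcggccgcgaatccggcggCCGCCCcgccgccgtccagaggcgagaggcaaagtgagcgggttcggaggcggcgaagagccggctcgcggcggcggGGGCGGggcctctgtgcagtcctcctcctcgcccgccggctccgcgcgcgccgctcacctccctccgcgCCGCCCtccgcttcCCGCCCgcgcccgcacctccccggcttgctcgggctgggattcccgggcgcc
MBD3: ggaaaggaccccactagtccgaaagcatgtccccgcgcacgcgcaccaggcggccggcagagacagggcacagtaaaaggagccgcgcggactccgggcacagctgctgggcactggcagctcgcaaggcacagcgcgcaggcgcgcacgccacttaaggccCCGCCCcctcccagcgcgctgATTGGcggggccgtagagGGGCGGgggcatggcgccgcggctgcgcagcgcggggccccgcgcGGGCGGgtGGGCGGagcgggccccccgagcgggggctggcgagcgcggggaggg
HDAC3: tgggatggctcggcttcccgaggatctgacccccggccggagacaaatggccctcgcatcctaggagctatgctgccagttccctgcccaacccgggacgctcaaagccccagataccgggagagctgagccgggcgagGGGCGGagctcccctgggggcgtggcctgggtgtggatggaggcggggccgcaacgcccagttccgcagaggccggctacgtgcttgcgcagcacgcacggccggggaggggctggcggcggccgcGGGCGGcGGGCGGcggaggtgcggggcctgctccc
HDAC8: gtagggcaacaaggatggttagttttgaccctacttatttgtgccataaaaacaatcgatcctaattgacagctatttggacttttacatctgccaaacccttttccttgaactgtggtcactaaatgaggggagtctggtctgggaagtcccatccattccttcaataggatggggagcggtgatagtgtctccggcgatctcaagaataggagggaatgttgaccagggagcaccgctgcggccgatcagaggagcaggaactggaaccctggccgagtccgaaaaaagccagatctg
The CHD3 and HDAC8 windows hold none of these letters. They are also the poorest in GC among the 6, at 56.0% for CHD3 and 49.3% for HDAC8, beside a median of 58.7% over all RefSeq windows. MBD3 has 77.0% GC, 4 GC boxes and 1 CCAAT box, HDAC3 has 74.0% GC and 3 GC boxes, this MTA3 window has 79.7% GC and 5 GC boxes, and this MTA2 window has 63.0% GC, 1 GC box and 3 ETS cores, of which the first pair overlap on opposite strands. Over the 12 windows of the 10 genes, 8 hold a GC box, as do 45.0% of the 35116 windows in RefSeq, 2 hold a CCAAT box (34.6% of all) and 2 an ETS core (10.3% of all). None of the 12 holds the E-box CACGTG, the TATA box TATAAA or the CRE TGACGTCA, which 7.26%, 11.5% and 1.85% of all windows hold. These matches describe the letters alone. The CHD3 window starts 3733 bases inside the gene as GENCODE 29 draws it. The HDAC8 window also lies wholly inside its gene, whose 5′ end is drawn there at 72573199. Among the windows not printed, those of CHD4 and HDAC2 and the second of MTA2 and of MTA3 lie wholly inside their genes too.

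At baseline the 10 genes spanned a wide range. Counts scaled to a common library total (CPM) by the trimmed mean of M-values (TMM) were divided by the kilobases of merged GENCODE 29 exons, which allows levels to be compared between genes. In control cells HDAC1 was highest at 36.5 ± 0.072 CPM per kb (SD, n = 2) and HDAC8 lowest at 0.562 ± 0.086. MTA2 (23.7 ± 0.045), CHD4 (23.7 ± 3.4) and CHD3 (23.2 ± 2.54) followed HDAC1 and did not differ beyond their spread. MBD3 (14.4 ± 0.781) and HDAC3 (13.9 ± 2.16) formed the next pair, again within their spread, ahead of HDAC2 at 10.3 ± 0.021. MTA1 at 5.20 ± 0.42 and MTA3 at 4.19 ± 0.299 CPM per kb came last before HDAC8. Per kb of the longest annotated transcript instead, HDAC1 (60.1), HDAC2 (16.2), MTA1 (12.5), MTA3 (7.60) and HDAC8 (2.27) kept their places, CHD4 (45.1) stood above MTA2 and HDAC3 (both 32.8), and CHD3 (30.8) stood above MBD3 (20.4). The ratio of the highest to the lowest gene was 65.0 by merged exons and 26.5 by longest transcript, since the merged exons of HDAC8 add up to 22986 bases against 5689 in its longest transcript.

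**Figure D1:**
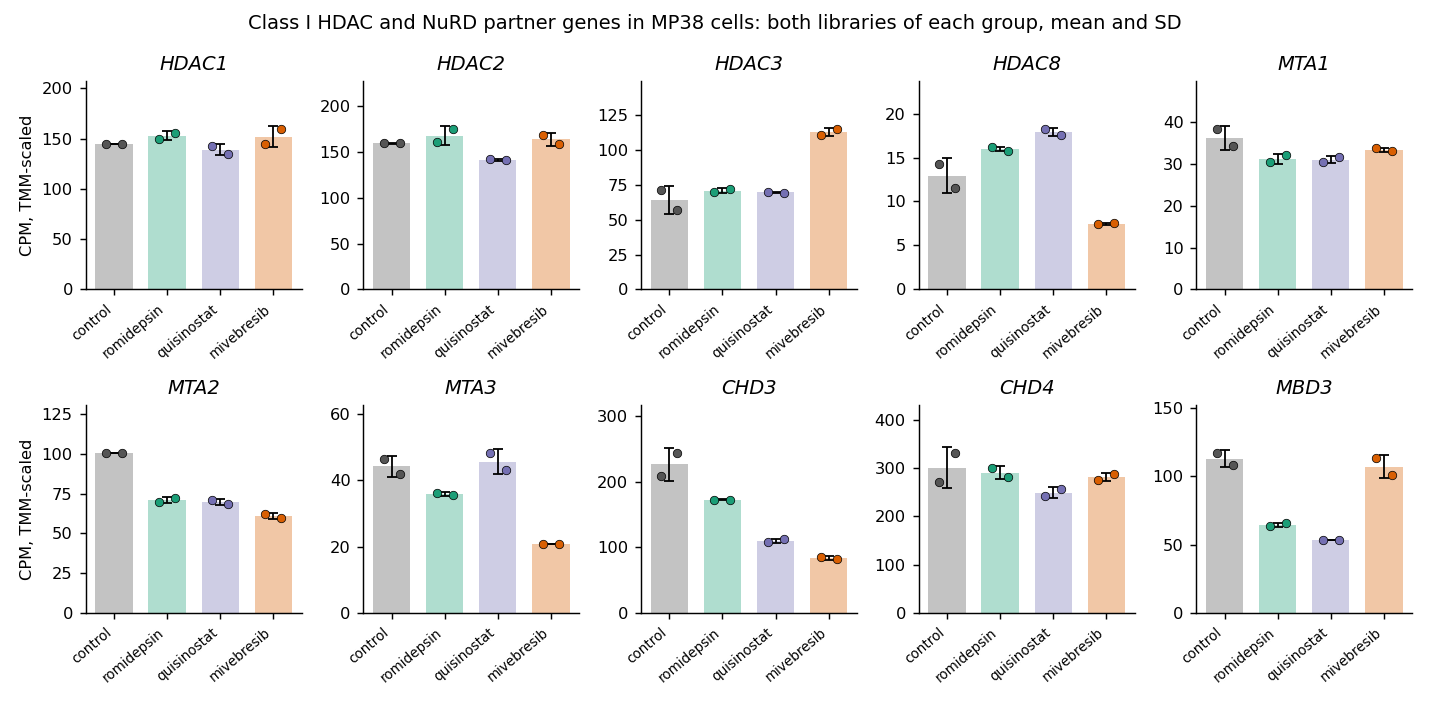
TMM-scaled CPM (vertical axes, each from 0 and on its own scale) of the 10 genes in the 8 libraries of MP38 cells; bars are the mean of 2 libraries, error bars the SD and points the libraries. The mivebresib libraries of HDAC3 (111 and 115) lie above all others, those of CHD3 and MTA3 below all others, and the romidepsin and quisinostat libraries of MBD3 lie below the control and mivebresib libraries.

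Among the catalytic subunits, HDAC1 read 144 and 145 CPM in the control libraries, 149.8 and 156 with romidepsin, 143 and 135 with quisinostat, and 145 and 159 with mivebresib. Its log2 FC was 0.08 (95% CI -0.11 to 0.27) with romidepsin, -0.06 (-0.25 to 0.13) with quisinostat and 0.07 (-0.12 to 0.26) with mivebresib, so that the 3 intervals together ran from 0.84-fold to 1.20-fold. HDAC2 read 159.5 and 160.0 CPM in the control, 161 and 175 with romidepsin, 142 and 141 with quisinostat, and 169 and 159 with mivebresib. The quisinostat libraries were the lowest, with a log2 FC of -0.17 against the control that did not pass (edgeR, adjusted p = 0.0967). Intervals for HDAC2 ran from -0.11 to 0.25 with romidepsin, from -0.36 to 0.01 with quisinostat and from -0.15 to 0.22 with mivebresib. The sign of both genes with quisinostat turned with the scaling, to 0.14 for HDAC1 and 0.03 for HDAC2 by library size alone, and neither passed the test there.

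HDAC3, the deacetylase of that corepressor complex, read 71.4 and 57.2 CPM in the control, 69.6 and 72.2 with romidepsin, 69.7 and 69.5 with quisinostat, and 111 and 115 with mivebresib. Only the mivebresib libraries stood clear of the control, and the 2 control libraries differed more from each other than those of any drug. The log2 FC was 0.81 ± 0.11 (SE) with mivebresib (edgeR, adjusted p = 0.000374), 0.14 with romidepsin (adjusted p = 0.340) and 0.11 with quisinostat (adjusted p = 0.390). Without the first control library, HDAC3 passed with romidepsin (0.33 on the log2 scale, adjusted p = 0.0122) and quisinostat (0.28, adjusted p = 0.0150) as well, and without the second its sign turned in both (-0.01 and -0.04).

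HDAC8, an X-linked deacetylase best known for acting on cohesin, was the least abundant member, with 14.3 and 11.5 CPM in the control. It read 16.1 and 15.8 with romidepsin, 18.2 and 17.6 with quisinostat, and 7.39 and 7.52 with mivebresib. Both HDAC inhibitor groups lay above the control libraries and the mivebresib group below them. HDAC8 rose with quisinostat (log2 FC 0.47 ± 0.11, edgeR, adjusted p = 0.00809) and fell with mivebresib (log2 FC -0.79 ± 0.12, adjusted p = 0.000951). With romidepsin its value of 0.31 missed the threshold (adjusted p = 0.0762) but passed without the first control library (0.49, adjusted p = 0.00816) and by library size alone (0.38, adjusted p = 0.0488).

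**Figure D2:**
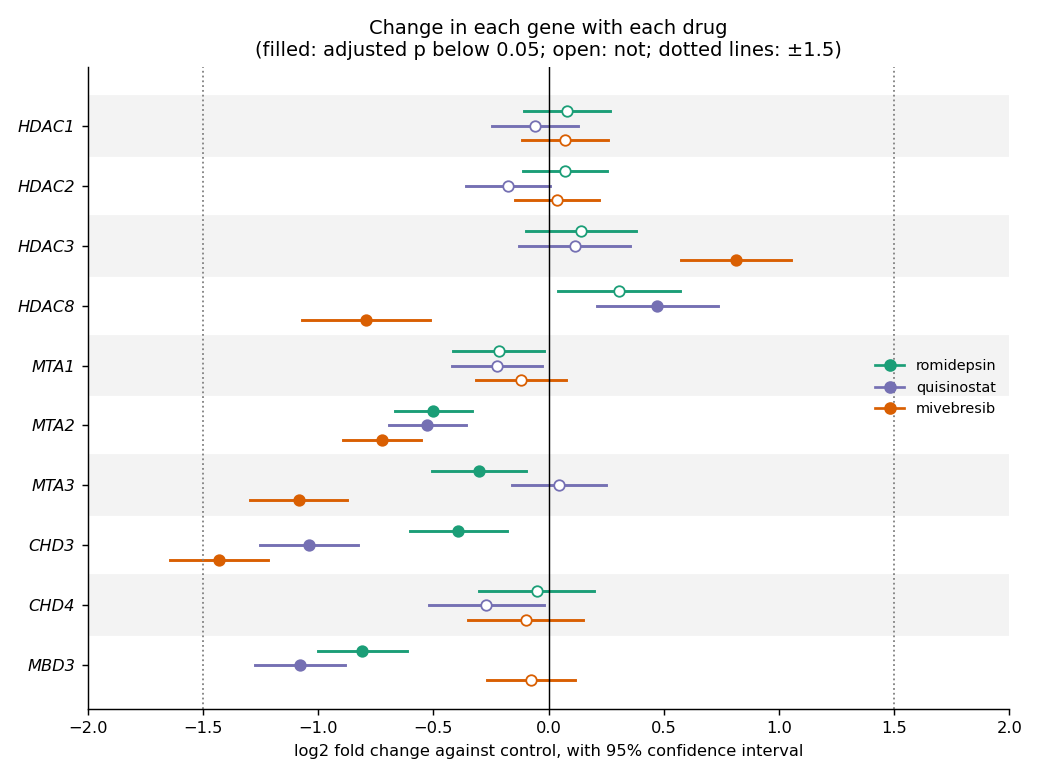
log2 FC against the control (horizontal axis) of the 10 genes with each of the 3 drugs, from the edgeR fit over all 8 libraries; lines are 95% confidence intervals, filled points passed an adjusted p of 0.05 and open points did not. CHD3 and MTA2 lie left of 0 with all 3 drugs, HDAC8 lies on opposite sides with quisinostat and mivebresib, and no point passes the dotted lines at 1.5.

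Among the remodellers, CHD3 had the smallest p of the 10 genes in the F test over the 4 groups (edgeR, adjusted p = 1.39e-05). It read 209 and 244 CPM in the control, 173 and 173 with romidepsin, 108 and 112 with quisinostat, and 86.1 and 82.1 with mivebresib. The 4 groups did not overlap, and the order from control through romidepsin and quisinostat to mivebresib held in every library. CHD3 fell by 0.39 ± 0.09 (SE) on the log2 scale with romidepsin (edgeR, adjusted p = 0.0133), by 1.04 ± 0.09 with quisinostat (adjusted p = 3.98e-05) and by 1.43 ± 0.09 with mivebresib (adjusted p = 1.19e-05). The fall with romidepsin lost its call when either romidepsin library was left out (adjusted p = 0.0890 and 0.0802), with the log2 FC at -0.39 each time. CHD4, the paralog that is the main NuRD helicase in most cells, read 270.4 and 332 CPM in the control, 299.9 and 281 with romidepsin, 241 and 257 with quisinostat, and 275 and 287 with mivebresib. The control libraries lay further apart than those of any drug, and the second was the highest of all 8. Its log2 FC was -0.05 (95% CI -0.30 to 0.20), -0.27 (-0.52 to -0.02) and -0.10 (-0.35 to 0.15) with romidepsin, quisinostat and mivebresib, and none passed after adjustment (edgeR, adjusted p = 0.743, 0.0648 and 0.486), although DESeq2 called the fall with quisinostat (-0.28, adjusted p = 0.0460). Without the first control library CHD4 passed with quisinostat (-0.41, adjusted p = 0.00246) and mivebresib (-0.24, adjusted p = 0.0491); without the second its log2 FC turned to 0.10 with romidepsin and 0.05 with mivebresib. Of the 31-base words in CHD4 transcripts, 55.7% occur in other annotated genes, mostly in an overlapping model on the same strand that has no row in the count table, so how its reads were assigned could move its level. CHD3 shares only 0.159% of its words, which leaves the 2 paralogs distinct.

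Among the MTA scaffolds, MTA2 fell with every drug. It read 101 and 100.3 CPM in the control, 69.6 and 72.4 with romidepsin, 71.1 and 68.2 with quisinostat, and 62.2 and 59.4 with mivebresib. All 6 treated libraries lay below both control libraries. The log2 FC was -0.50 ± 0.07 (SE) with romidepsin (edgeR, adjusted p = 0.00164), -0.53 ± 0.07 with quisinostat (adjusted p = 0.000441) and -0.72 ± 0.07 with mivebresib (adjusted p = 0.000103), and leaving out any 1 library kept these values between -0.53 and -0.47, -0.55 and -0.51, and -0.76 and -0.69. MTA3, known for its role in epithelial cells, read 46.5 and 42.1 CPM in the control, 36.3 and 35.5 with romidepsin, 48.3 and 43.1 with quisinostat, and 20.9 and 20.9 with mivebresib. The mivebresib libraries stood far below the rest, with a log2 FC of -1.08 ± 0.09 (adjusted p = 4.14e-05). MTA3 also fell with romidepsin (-0.30 ± 0.09, adjusted p = 0.0332), a call that DESeq2 (adjusted p = 0.0506) and 7 of the 8 fits without 1 library lost (adjusted p 0.0566 to 0.147 there), and was 0.04 with quisinostat (adjusted p = 0.694). MTA1, the founding member of the family, read 38.3 and 34.2 CPM in the control, 30.3 and 32.0 with romidepsin, 30.4 and 31.6 with quisinostat, and 33.7 and 33.0 with mivebresib. All treated libraries lay below both control libraries, but the log2 FC of -0.22, -0.22 and -0.12 did not pass (adjusted p = 0.0879, 0.0540 and 0.289). Without the second control library MTA1 passed with romidepsin (-0.30, adjusted p = 0.0200) and quisinostat (-0.31, adjusted p = 0.0116).

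MBD3, the subunit that places NuRD without reading DNA methylation, fell with both HDAC inhibitors and was not called with mivebresib. It read 117 and 108 CPM in the control, 63.4 and 65.5 with romidepsin, 53.2 and 53.6 with quisinostat, and 113 and 101 with mivebresib. The 4 HDAC inhibitor libraries lay below all others, and the mivebresib libraries overlapped the control. MBD3 fell by 0.81 ± 0.09 (SE) on the log2 scale with romidepsin (edgeR, adjusted p = 0.00036) and by 1.08 ± 0.09 with quisinostat (adjusted p = 2.18e-05). With mivebresib its log2 FC was -0.08 (95% CI -0.27 to 0.12, adjusted p = 0.487). Mivebresib was the only BET inhibitor here and was given at a higher dose, so drug class, compound and dose cannot be told apart. Of the 31-base words in MBD3 transcripts, 13.9% occur in other genes.

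Counted against all 15085 genes tested with edgeR at an adjusted p below 0.05, 0 of the 10 rose with romidepsin (background 15.2% of genes higher), where 1 passed at an unadjusted p of 0.05 and DESeq2 and limma-voom also called 0. With that drug 4 of the 10 fell (background 15.8%), which were MTA2, MTA3, CHD3 and MBD3. By library size alone the counts with romidepsin were 1 higher (HDAC8) and 3 lower, MTA3 being lost. DESeq2 gave 3 lower with romidepsin, without MTA3, and 4 lower with quisinostat, with CHD4. With quisinostat 1 rose (HDAC8; background 28.0%) and 3 fell (MTA2, CHD3 and MBD3; background 25.1%), or 2 and 3 by library size alone, which added HDAC3. With mivebresib 1 rose (HDAC3; background 22.2%) and 4 fell (HDAC8, MTA2, MTA3 and CHD3; background 24.1%). The 6 NuRD partners held 4, 3 and 3 of these falls, and 0 of them were higher with any drug, also at an unadjusted p of 0.05 or by DESeq2 or limma-voom. The median log2 FC of the 10 genes was -0.13, -0.20 and -0.11 with romidepsin, quisinostat and mivebresib, beside -0.01, 0.00 and 0.01 over all genes. Over the 4 groups 6 of the 10 passed the F test (HDAC3, HDAC8, MTA2, MTA3, CHD3 and MBD3), while 74.2% of all genes did, so that change as such did not set these genes apart. At the size used by the study, a log2 FC beyond 1.5, 0 of the 10 passed in edgeR, DESeq2 or limma-voom, which 4.08%, 12.2% and 8.32% of all genes passed with romidepsin, quisinostat and mivebresib. These 3 comparisons share the control libraries, which differed more from each other than the pairs of any drug (chi-square per degree of freedom 58.1, against 9.52 to 9.79). Library size alone, in place of TMM, moved the median of all genes by 0.20 on the log2 scale with quisinostat, and changes with that drug are relative to the median gene. Over all genes it turned 2293 higher and 2377 lower with romidepsin into 2787 and 1700, and 4231 and 3793 with quisinostat into 5625 and 2144.

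Comparing the drugs directly, without the control, quisinostat differed from romidepsin in 4 of the 10 genes (background 35.6%), at the same 40 nM. CHD3 was lower with quisinostat (log2 FC -0.65 ± 0.09, edgeR, adjusted p = 0.00122) and MTA3 higher (0.35 ± 0.09, adjusted p = 0.0166). MBD3 (-0.27, adjusted p = 0.0378) and HDAC2 (-0.25, adjusted p = 0.0417) were lower, but these 2 calls were lost by library size alone (adjusted p = 0.218 and 0.264), and of the 4 only CHD3 kept its call without either romidepsin library or the first quisinostat library. For MTA2 the difference between the 2 HDAC inhibitors was -0.03 (95% CI -0.19 to 0.14), and for HDAC8 it was 0.17 (-0.09 to 0.42). Mivebresib, given at a higher dose, differed from romidepsin in 6 of the 10 (background 48.9%). It was higher for MBD3 (0.73 ± 0.09, adjusted p = 0.000198) and HDAC3 (0.67 ± 0.10, adjusted p = 0.000924), and lower for HDAC8 (-1.10 ± 0.12, adjusted p = 0.000145), CHD3 (-1.04 ± 0.09, adjusted p = 4.85e-05), MTA3 (-0.78 ± 0.09, adjusted p = 0.000211) and MTA2 (-0.22 ± 0.07, adjusted p = 0.0343). The call of MTA2 was lost without either library of these 2 groups (adjusted p 0.0771 to 0.183).

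Mivebresib differed from quisinostat in 7 of the 10 (background 57.7%). MBD3 was 2.00-fold higher with mivebresib (log2 FC 1.00 ± 0.09, edgeR, adjusted p = 2.59e-05) and HDAC3 1.62-fold (0.70 ± 0.10, adjusted p = 0.00056), whereas HDAC8 (-1.27 ± 0.12, adjusted p = 4.44e-05), MTA3 (-1.13 ± 0.09, adjusted p = 2.00e-05) and CHD3 (-0.39 ± 0.09, adjusted p = 0.00656) were lower. HDAC2 (0.21, adjusted p = 0.0488) and MTA2 (-0.20, adjusted p = 0.0475) passed narrowly. HDAC2 was 0.03 by library size alone (adjusted p = 0.755) and 0.13 by upper-quartile factors (adjusted p = 0.184), MTA2 was not called by DESeq2 (adjusted p = 0.0747), and both calls were lost in 6 of the 8 fits that left out 1 library. Of the 7, 4 remained called when the second quisinostat or the second mivebresib library was left out (HDAC3, HDAC8, MTA3 and MBD3).

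**Figure D3:**
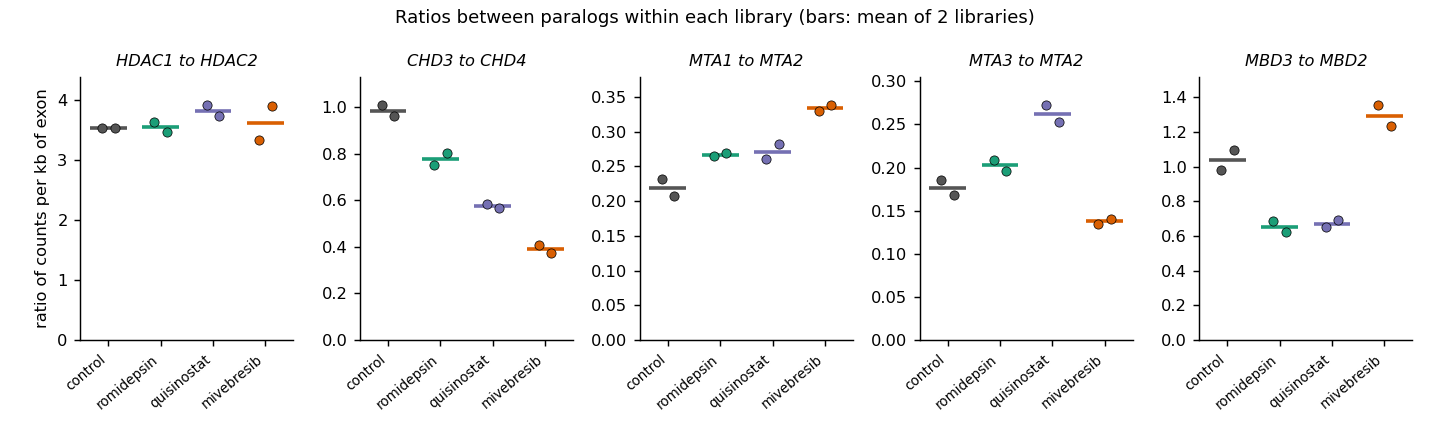
Ratio of counts per kb of merged exon between paralogs in each of the 8 libraries (vertical axes from 0); points are libraries and horizontal bars the mean of 2. CHD3 to CHD4 steps down from 0.984 in the control to 0.390 with mivebresib, and MBD3 to MBD2 is low in both HDAC inhibitor groups.

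Ratios between paralogs within a library do not depend on library scaling, and are given as a description of 2 libraries per group. By merged exons CHD3 and CHD4 were nearly even in the control (ratio of counts per kb 0.984 ± 0.034, SD, n = 2). The ratio was 0.776 ± 0.035 with romidepsin, 0.576 ± 0.011 with quisinostat and 0.390 ± 0.024 with mivebresib, so that CHD3 made up 49.6%, 43.7%, 36.6% and 28.1% of the pair. By longest transcript CHD4 was ahead in the control, where the ratio was 0.685 ± 0.024 and CHD3 made up 40.6%. HDAC1 to HDAC2 stood at 3.53 in the control, 3.55 ± 0.118 with romidepsin, 3.83 ± 0.129 with quisinostat and 3.63 ± 0.397 with mivebresib. MBD3 to MBD2, the paralog that binds methylated DNA and replaces MBD3 in NuRD, was 1.04 ± 0.080 in the control, 0.653 ± 0.045 with romidepsin, 0.669 ± 0.028 with quisinostat and 1.29 ± 0.084 with mivebresib. Both HDAC inhibitor groups lay below the control and the mivebresib group above it.

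Within the MTA family MTA2 made up 71.6% of the summed level per kb in the control, 68.0% with romidepsin, 65.2% with quisinostat and 68.0% with mivebresib. MTA3 held 12.7%, 13.8%, 17.1% and 9.35% in the same order, and MTA1 15.7%, 18.2%, 17.7% and 22.7%. The ratio of MTA1 to MTA2 was thus above the control with every drug, 1.22-fold, 1.24-fold and 1.52-fold, while MTA3 to MTA2 was above it with both HDAC inhibitors (1.15-fold and 1.49-fold) and below it with mivebresib (0.78-fold). Among the class I HDACs, HDAC1 made up 59.6% of the summed level per kb in the control and 52.0% with mivebresib, and HDAC3 22.6% and 33.1%. These shares depend on the lengths used, whereas the fold changes of the ratios do not.

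By the rule for likeness, the 5 genes whose log2 CPM followed CHD3 most closely over the 8 libraries were DHRS3 (Pearson r = 0.997), VPS52 (0.997), GREM1 (0.996), FAP (0.995) and RNF145 (0.994). The points share libraries and group means, so these are a description. The log2 FC of DHRS3, a retinal reductase, was -1.25, -3.35 and -4.65 with romidepsin, quisinostat and mivebresib, steeper than that of CHD3, and that of VPS52, a vesicle tethering subunit, was -0.38, -0.86 and -1.12.

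The rest of NuRD was read from a list of 7 further subunits. With quisinostat 6 of 7 fell, with 1 rise: CDK2AP1, a small NuRD subunit, by 1.16 on the log2 scale, RBBP4, the histone chaperone, by 0.72, GATAD2A by 0.54, MBD2 by 0.45, GATAD2B by 0.35 and RBBP7 by 0.30; by library size alone 3 of them (CDK2AP1, RBBP4 and GATAD2A) kept the call. CHD5, the neural CHD paralog, rose by 1.82. It read 4.71 and 4.38 CPM in the control, 7.59 and 7.89 with romidepsin, 16.0 and 16.0 with quisinostat, and 3.80 and 4.50 with mivebresib. With romidepsin 2 fell (CDK2AP1 by 0.86 and RBBP4 by 0.41) and CHD5 rose by 0.77. With mivebresib 2 fell, CDK2AP1 by 1.67 and MBD2 by 0.40. CDK2AP1 read 254 and 181 CPM in the control, which was the widest spread of any group, against 114 and 125, 102 and 92.3, and 73.8 and 63.3 with romidepsin, quisinostat and mivebresib. The median log2 FC of the 7 was -0.07, -0.45 and -0.13, beside -0.01, 0.00 and 0.01 over all genes. Of all genes tested, 15.8%, 25.1% and 24.1% were called lower with romidepsin, quisinostat and mivebresib, and 15.2%, 28.0% and 22.2% higher.

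Among 12 NuRD-associated factors, zinc finger and PWWP proteins that bring the complex to its sites, calls went both ways with each drug. With romidepsin 3 rose and 2 fell, with quisinostat 5 rose and 3 fell, and with mivebresib 2 rose and 5 fell. The background of all genes higher and lower was 15.2% and 15.8%, 28.0% and 25.1%, and 22.2% and 24.1% in that order. BCL11A, a neural and blood cell repressor, rose by 1.37 with romidepsin and 3.56 with quisinostat on the log2 scale, from a mean of 0.379 CPM in the control to 4.49 with quisinostat. SALL2 rose by 1.44 and 2.14 and fell by 1.38 with mivebresib, while ZFPM1, a GATA cofactor, rose with quisinostat (0.53) and mivebresib (1.21). BCL11B had 4 and 0 counts in the control, 29 and 27 with romidepsin, 66 and 71 with quisinostat, and 1 and 9 with mivebresib, and was called with both HDAC inhibitors from these few counts. With mivebresib ZMYND8, a reader of acetylated histones, fell by 2.05 (adjusted p = 3.29e-06, edgeR), from 42.0 and 48.8 CPM in the control to 11.3 and 10.6, against 40.6 to 45.3 in the HDAC inhibitor libraries. SALL4 fell by 2.48 and SALL1 by 1.90 with mivebresib, whereas SALL1 rose by 0.67 with quisinostat.

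The other complexes of class I HDACs held calls in both directions, with counts to be read beside the same background percentages of all genes. Of 15 SIN3 complex genes, 2 rose and 3 fell with romidepsin, and 4 rose and 3 fell with mivebresib. With quisinostat 2 rose and 1 fell, or 9 and 0 by library size alone. That scaling called 5625 of all 15085 genes higher and 2144 lower with quisinostat. ING2 (log2 FC -0.70) and BRMS1 (-0.47) fell with romidepsin, SAP30L rose (0.63) and PHF12 fell (-0.22) with quisinostat, BRMS1L (0.69) and SIN3A (0.49) rose with mivebresib, and ARID4A rose with both HDAC inhibitors (0.50 and 0.49) and fell with mivebresib (-0.40). Of 10 CoREST genes, 1 rose and 2 fell, 2 rose and 1 fell, and 2 rose and 4 fell in the same order of drugs. The demethylase KDM1A rose with romidepsin (0.39), and RCOR2 (0.90 and 0.64) and HMG20B (0.33 and 0.77) rose with quisinostat and mivebresib. RCOR2 passed narrowly with mivebresib (edgeR, adjusted p = 0.0440), and DESeq2 and limma-voom each called only 1 CoREST gene higher there. ZMYM2 fell with all 3 drugs (-0.28, -0.35 and -0.55), of which library size alone left only the call with mivebresib. ZMYM3 fell with romidepsin (-0.50) and mivebresib (-1.29). In the HDAC3 corepressor complex, NCOR1 fell with quisinostat (-0.40, a call lost by library size alone). CORO2A rose with romidepsin (0.50) and quisinostat (1.17), and with mivebresib, where HDAC3 rose, TBL1XR1 fell (-0.67) and GPS2 rose (0.56). Of 3 MiDAC genes tested, ELMSAN1 rose with romidepsin (0.45) and mivebresib (0.71) and TRERF1 fell with mivebresib (-2.36), on 3 and 14 counts there. Of the 4 listed, ZNF541 was at 0 in every library.

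Of the 7 other zinc-dependent HDACs, 0 rose in edgeR (1, HDAC5, at an unadjusted p of 0.05 and by DESeq2, 0 by limma-voom) and 2 fell with romidepsin, 1 rose and 3 fell with quisinostat, and 2 rose and 3 fell with mivebresib. HDAC7 fell with all 3 drugs (-0.37, -0.63 and -0.59), and HDAC9 did so too (-0.27, -0.24 and -0.73), but by library size alone or upper-quartile factors its calls with romidepsin and quisinostat were lost. HDAC4 fell with quisinostat (-0.51, a call lost by library size alone) and mivebresib (-1.17), and HDAC6, the tubulin deacetylase, rose with quisinostat (0.56). Over the 7 lists together, 60 of 61 genes were tested. There 9 rose and 11 fell with romidepsin, 12 rose and 17 fell with quisinostat, and 12 rose and 20 fell with mivebresib, to be read beside the background percentages of all genes given above. By library size alone the split was 10 to 5 with romidepsin, 23 to 5 with quisinostat and 12 to 20 with mivebresib. Over all 15085 genes that scaling called 2787 higher and 1700 lower, 5625 and 2144, and 3499 and 3486 in the same order. List by list, that scaling gave, as higher and lower, 3 and 1 with romidepsin and 5 and 1 with quisinostat for NuRD-associated factors, 2 and 0 with romidepsin for SIN3, 1 and 1 and 3 and 0 for CoREST, 1 and 0 with quisinostat for MiDAC, and 1 and 1 and 2 and 1 for the other HDACs. Without the first romidepsin library 4 fell with romidepsin, and without the second control library 18 did. With quisinostat 9 fell without its first library, and with mivebresib 7 rose and 13 fell without its first library.

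**Figure D4:**
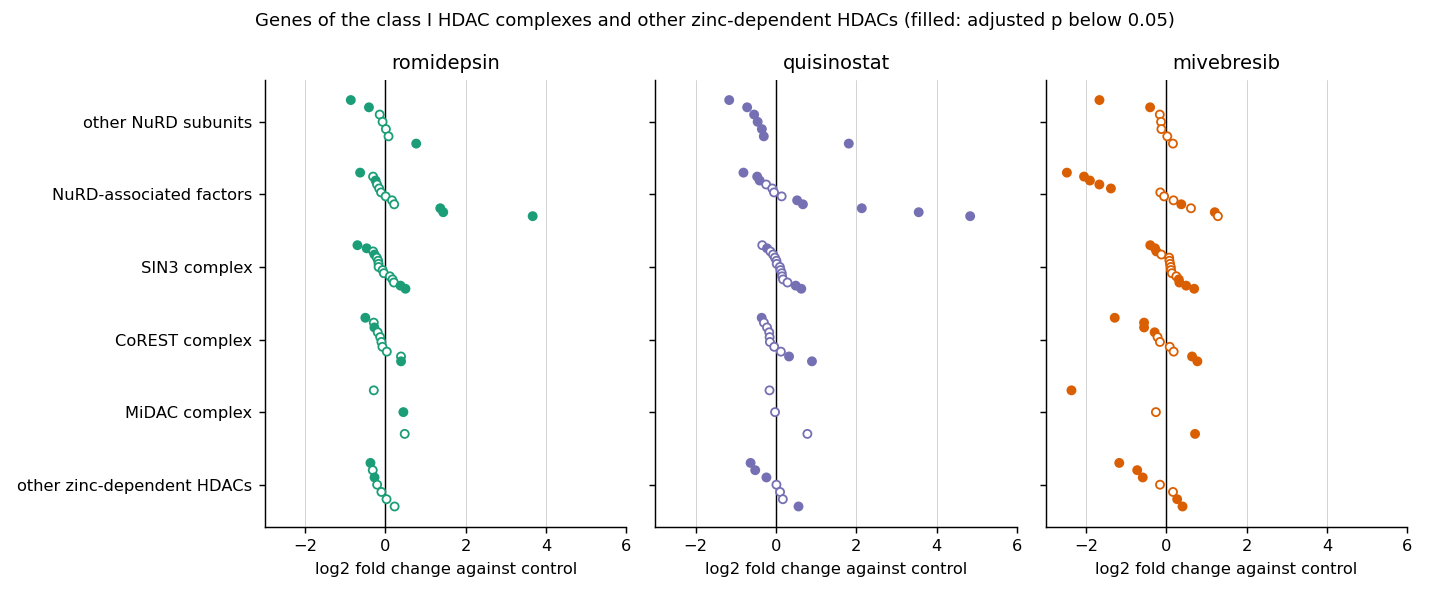
log2 FC against the control (horizontal axes) of the genes in 6 of the 7 hand-written lists (rows) with each of the 3 drugs; each point is 1 gene, filled where the adjusted p was below 0.05. The 3 rightmost points with quisinostat are BCL11B, BCL11A and SALL2, and the leftmost with mivebresib are SALL4, TRERF1 and ZMYND8.

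The drugs were read against 3 response genes. H1F0, a linker histone known to rise on HDAC inhibition, rose with all 3 drugs (log2 FC 0.97, 0.56 and 0.98). HEXIM1, a known BET inhibitor response gene, read 109.9 and 113 CPM in the control and 268 and 255 with mivebresib (1.23, edgeR, adjusted p = 1.35e-05), and fell with romidepsin (-0.34) and quisinostat (-0.44). CDKN1A, a cell cycle inhibitor, fell with quisinostat (-0.45, edgeR, adjusted p = 0.00864) and was 0.15 with romidepsin, which did not pass (adjusted p = 0.343). CDKN1A was not called with mivebresib, so that this response gene was called higher with no drug. Of 7 melanocytic markers, MLANA, PMEL, MITF, SOX10 and TYRP1 were abundant, TYR was at 1.51 to 3.51 CPM and DCT, a defining marker, was near 0. Their summed level was 4193 and 5452 CPM in the control, 5027 and 4739 with romidepsin, 3563 and 4108 with quisinostat, and 3698 and 3776 with mivebresib. Beside the falls of CHD3 and MTA2, SOX10 fell with all 3 drugs (-0.39, -0.92 and -1.93), and MITF (-1.39 and -1.47) and MLANA (-1.05 and -1.33) fell with quisinostat and mivebresib, and their part in the results was not tested. Of 14 markers of fibroblasts, endothelium, immune and epithelial cells, 12 were under 1 CPM in every library and 3 were at 0 in all, with CD68 (61.1 to 83.0 CPM) and COL1A1 (1.02 to 10.4 CPM) the exceptions.

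Genes that overlap a member could share its reads, since whether counting used strand is not given in the sources used here. NAA38 lies opposite the 5′ end of CHD3 without shared exons and had 489 to 917 counts, TEX22 shares exons and strand with MTA1 but had at most 54 counts, and AC005943.2, opposite MBD3, had at most 16. AC005943.1 shares exons, strand and 738 of the 31-base words with MBD3, and AL133500.1 does so with HDAC8 (1192 words). Neither has a row in the count table, and how reads were assigned there was not tested. For HDAC3 8.05%, for MTA1 7.83% and for HDAC8 7.01% of 31-base words occur in other genes, and for MTA2 0.115%.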

How the data were processed

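Messenger RNA of MP38 cells was sequenced by the authors as strand-specific paired-end libraries (4 groups of 2 libraries) and processed with BioJupies. The deposited count table holds raw counts for 35238 gene symbols, with 28483235 to 29359024 counts per library. The authors' second table holds log10 values, equal to log10 of CPM plus 1 computed from the counts, and their remaining table holds a quantile-normalized score of unnamed scale, planned as log2 but used for calls only. The labels name hg38; the aligner, counter and annotation are not given in the sources used here. No pair of replicates held identical values, and a chi-square test of their counts found differences beyond sampling noise in each of the 4 pairs.

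The 10 genes and all gene lists were chosen with earlier results of these data known. The 7 lists of partner genes were written by hand, and 1 named gene is not reported here. Named genes were the 10 members, the 3 called genes with the largest log2 FC of each list and drug, response genes and markers, the 5 genes most like the member with the smallest F test p, and overlapping genes. Named outside this rule, after their values were seen, were GATAD2A, GATAD2B, MBD2, RBBP7, HDAC9 and SALL1 with quisinostat, SALL2 and ZMYM2 with mivebresib, ZFPM1, HDAC5, ZNF541, CD68 and COL1A1.

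The quasi-likelihood test of edgeR 4.0.16 (R 4.3.3) was fitted to all 8 libraries in 1 model after TMM scaling, on the 15085 genes that filterByExpr kept. P-values were adjusted by Benjamini-Hochberg over all of them, with calls made under 0.05. SE was the log2 FC divided by the root of F, and 95% confidence intervals used the t distribution. Levels per kb used GENCODE 29 on GRCh38, and promoters came from RefSeq. The steps were checked on simulated counts. Alternatives were DESeq2 1.42.0, limma 3.58.1 (voom, the log10 table converted to log2, and the quantile-normalized table), other scalings and filters, pairwise fits, a replicate block, each library left out, and stricter thresholds. With at least 202 counts for every member in every library, the 2 libraries per group limit precision more than depth does.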

Additional observations from a re-analysis of the deposited data

How the results depend on the processing

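With 2 wells per group, the outcome of leaving out 1 library rests on a lone sample assumed to vary like the other groups. The calls of MTA2 with all 3 drugs, of CHD3 with quisinostat and mivebresib, of MBD3 with both HDAC inhibitors, of HDAC8 with quisinostat and mivebresib, and of HDAC3 and MTA3 with mivebresib held at an adjusted p of 0.05 in every alternative that gave a log2 FC. On the quantile-normalized table, which gave no log2 FC, the calls with romidepsin and quisinostat named here were all lost. Not all of those with mivebresib remained there. That table called fewer of all genes as well, as given below. The control libraries differ most and are shared by all drug comparisons. Where a count moved, the cause was not tested.

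Counts of the 10 members were 0 higher and 4 lower with romidepsin, 1 and 3 with quisinostat, 1 and 4 with mivebresib, and 4, 6 and 7 for quisinostat against romidepsin, mivebresib against romidepsin and mivebresib against quisinostat. Partner genes were 9 higher and 11 lower, 12 and 17, and 12 and 20. By library size alone 1 member was higher with romidepsin, 2 with quisinostat, and 2 differed between quisinostat and romidepsin; partner genes were 5 lower with romidepsin, and 23 higher and 5 lower with quisinostat. Upper-quartile factors gave 1 member higher with romidepsin and 2 between the HDAC inhibitors. For partner genes they gave 5 lower with romidepsin, and 19 higher and 9 lower with quisinostat. Over all genes they called 2883 higher and 1665 lower with romidepsin, and 5048 and 2673 with quisinostat. A mean CPM of at least 5 gave 1, 2 and, for partner genes lower with romidepsin, 6. Without a filter 2 members differed between the HDAC inhibitors. DESeq2 gave 7 partner genes lower with romidepsin. The authors' log10 table in limma gave 2 members higher with quisinostat and 2 between the HDAC inhibitors. It gave 5 partner genes lower with romidepsin, and 23 higher and 5 lower with quisinostat. Over all genes it called 1679 lower with romidepsin, and 5733 higher and 2149 lower with quisinostat. On the quantile-normalized table members lower were 0, 0 and 2, those higher with quisinostat 0, and the direct comparisons 0, 1 and 3. Partner genes there were 3 higher and 0 lower, 5 and 0, and 3 and 8. That table called fewer of all genes, 837 higher and 532 lower with romidepsin, against 2293 and 2377 in the main fit. With quisinostat it called 1698 and 1395 (main fit 4231 and 3793), and with mivebresib 1509 and 1618 (3342 and 3628). Its direct comparisons called 1596, 2764 and 4731 genes, against 5367, 7372 and 8710. Fits of only the 4 libraries compared gave 2 members and 4 partner genes lower with romidepsin. They gave 11 partner genes lower with quisinostat and 5 higher with mivebresib. Over all genes these fits called 1116 of 14127 lower with romidepsin, 2896 of 14773 lower with quisinostat and 2484 of 14014 higher with mivebresib. An adjusted p below 0.01 left 2 members lower with romidepsin, 1 between the HDAC inhibitors, and 5, 10 and 6 of the partner genes lower with romidepsin, lower with quisinostat and higher with mivebresib. With a log2 FC beyond 1.5 as well, 0 members were called in any comparison, and partner genes were 1 higher and 0 lower, 4 and 0, and 0 and 6.

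Leaving out each library gave 0 to 2 members higher and 2 to 5 lower with romidepsin, 1 to 2 and 3 to 4 with quisinostat, 1 to 1 and 4 to 5 with mivebresib, 1 to 5, 5 to 6 and 4 to 8 in the direct comparisons and 6 to 8 in the F test; partner genes ran from 7 to 12 and 4 to 18, 9 to 14 and 9 to 19, and 7 to 13 and 13 to 21.

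Some log2 FC that had not passed turned in sign. CHD4 with romidepsin was 0.026 on the log10 table, 0.022 by library size alone, 0.033 by upper-quartile factors, 0.0070 at a mean CPM of 5, and 0.101 without the second control library against -0.168 without the first. HDAC1 with quisinostat was 0.139, 0.141, 0.070 and 0.035 in the first 4 of these, and HDAC2 0.025 and 0.026 in the first and second. Without the first and without the second control library, HDAC3 was 0.332 and -0.012 with romidepsin and 0.278 and -0.044 with quisinostat, MTA3 0.115 and -0.033 with quisinostat, and CHD4 -0.239 and 0.052 with mivebresib; without the first control library all of these except MTA3 passed. MTA3 with quisinostat was -0.032 without the first quisinostat library. Without the first and without the second mivebresib library, log2 FC with mivebresib were 0.135 and -0.00099 for HDAC1, -0.0099 and 0.078 for HDAC2 and -0.164 and 0.0023 for MBD3. The ratio of the highest to the lowest level per kb was 65.0 and became 26.5 by longest transcript.

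Equal replicate numbers share only a number: deviations of same-numbered libraries correlated at -0.162 to 0.158 over the 6 pairs of groups. A replicate block gave 0 and 4, 1 and 3, and 1 and 4 members, and 3, 6 and 5 in the direct comparisons, and partner genes 9 and 9, 11 and 18, and 11 and 20.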
